A study of Mus musculus with 10 samples.

Results

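The 49 genes described here encode enzymes that write, erase or maintain marks on histones and DNA, together with the Polycomb subunits they work with. They were chosen by name, as the rows of the read count table whose gene symbol is on a fixed list of such enzymes, and they are 49 of its 24015 genes. By role they comprise 2 H3K4 methyltransferases, 2 H3K36 methyltransferases, 6 H3K9 methyltransferases, 5 Polycomb genes, 12 histone demethylases, 4 class I, 4 class IIa and 3 class IIb or IV deacetylases, 5 acetyltransferases and 6 genes of DNA methylation. Expression was measured by bulk RNA sequencing in MAF9 cells, bone marrow cells of the C57BL/6 mouse strain transduced with the MLL-AF9 fusion gene and grown in culture with IL-3. The cells received 1 of 4 inhibitors, each at the dose called its IC50, or DMSO as the control, and were treated for 4 days. MM-401 blocks the binding of MLL1 to WDR5, EPZ5676 (agent EPZ in the labels) inhibits the H3K79 methyltransferase DOT1L, MI-2-2 (agent MI in the labels and MI-2 in the protocol, read as the study's MI-2-2) blocks the binding of MENIN to MLL proteins, and iBET is a bromodomain inhibitor. Each of the 5 groups had 2 libraries, 10 in all, with 20394762 to 29473127 counted reads each. All cells carry the MLL-AF9 transgene, so no group stands for untransduced bone marrow.

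Lysine methyltransferases and acetyltransferases add marks to histone tails, and demethylases and deacetylases remove them. Marks on H3K4, H3K36 and acetylated lysines accompany active genes, whereas H3K9 and H3K27 methylation and DNA methylation accompany silent ones. Leukemia cells driven by MLL fusion proteins depend on several such enzymes.

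Levels are given as CPM, read counts scaled to library size after TMM normalization, and differences as log2 ratios ± SE from an edgeR fit of all 10 libraries with 2 libraries a group. A gene is said to have risen or fallen where the Benjamini-Hochberg adjusted p over the 12971 genes tested was under 0.05. All 49 members passed the filter on low counts. The libraries were checked first. Xist was at 4.65 CPM in DMSO replicate 2 and at 1026 to 2818 CPM in the other 9 libraries. From the Y chromosome, Uty was at 19.8, Kdm5d at 28.6, Eif2s3y at 61.1 and Ddx3y at 64.5 CPM in DMSO replicate 2, and none of them had more than 1 read in any other library. DMSO replicate 2 thus carries RNA of male cells and DMSO replicate 1 does not, and the labels do not say whether the DMSO cultures had separate sources. The numbers of members called by edgeR against DMSO are therefore given with and without DMSO replicate 2. Where DMSO replicate 1 is left out instead, DMSO replicate 2 is the only control, and calls against DMSO then rest on that library. MM-401 serves as a second reference, since its libraries lay closest together over all genes tested. It is itself an inhibitor, so a difference from it can come from either agent. For the members, the median absolute log2 ratio between the replicates of a group was 0.30 in DMSO, 0.13 in MM-401, 0.18 in EPZ5676, 0.17 in MI-2-2 and 0.12 in iBET libraries. Over all genes tested the corresponding medians were 0.42, 0.14, 0.25, 0.20 and 0.16.

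The labelled cell type was compared with marker genes, and each list is given with its gene of highest median over the 10 libraries. Summed levels of 10 myeloid progenitor genes (Ctsg by median, with Elane higher in 8 libraries) were 10653 and 14594 CPM in DMSO, 11682 and 12074 with MM-401, 4408 and 4810.3 with EPZ5676, 4039.9 and 3548 with MI-2-2, and 7586 and 6787 with iBET. Summed levels of 9 mature neutrophil genes (S100a8 by median, with S100a9 higher in the EPZ5676 and MI-2-2 libraries) were 3676 and 682 CPM in DMSO, 4731 and 6184 with MM-401, 51357 and 69541 with EPZ5676, 46515 and 47375 with MI-2-2, and 1249.8 and 519 with iBET. Against MM-401, all 9 of these neutrophil genes rose under EPZ5676 and all 9 under MI-2-2, while under iBET edgeR called 0 higher and 4 lower. Of the 10 progenitor genes, 2 rose and 5 fell with EPZ5676 against MM-401, and 2 rose and 6 fell with MI-2-2. Summed levels of 7 monocyte or macrophage genes (Cd68 by median) were 116 and 99.8 CPM in DMSO, 169 and 151 with MM-401, 509.6 and 681 with EPZ5676, 515 and 1042 with MI-2-2, and 103 and 174 with iBET. The leukocyte gene Ptprc was at 380.2 to 1011 CPM, while Cd34 was at most at 2.35 CPM. Genes of other lineages were lower. Summed mast cell or basophil genes (5, Mcpt8 by median, with Fcer1a at 0) lay between 7.52 and 22.2 CPM, lowest with EPZ5676. Summed megakaryocyte genes (4, Itga2b by median, with Pf4 higher in 4 libraries) reached 8.98 CPM with MI-2-2 and were at most 2.92 CPM outside EPZ5676 and MI-2-2. Summed stromal genes (4, Col1a1 by median, with Col1a2 and Col3a1 at 0) reached 19.0 CPM with EPZ5676 and were at most 0.756 CPM in DMSO, MM-401 and iBET. Summed T cell genes (5, Cd3d by median, with Cd3e and Cd8a at 0) reached 2.05 CPM, B cell genes (4, Cd79a by median, with Ms4a1 and Pax5 at 0) 1.17 CPM and eosinophil genes (2, Prg2 by median) 0.506 CPM. In these bulk libraries, fewer cells of a type and less RNA per cell cannot be told apart. Against DMSO, edgeR called all 9 neutrophil genes higher with EPZ5676 and all 9 with MI-2-2, and 2 lower with iBET. With MM-401 it called 0, although their median log2 difference from DMSO was 1.27. Marker genes of maturation were thus called with EPZ5676, MI-2-2 and iBET. With MM-401 the summed neutrophil genes, at 4731 and 6184 CPM, lay above both DMSO libraries without a call. The study reports, without showing the data, clear myeloblast differentiation with MM-401 and not with the other inhibitors. The part of maturation in the member differences of any group was not tested.

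**Figure D1:**
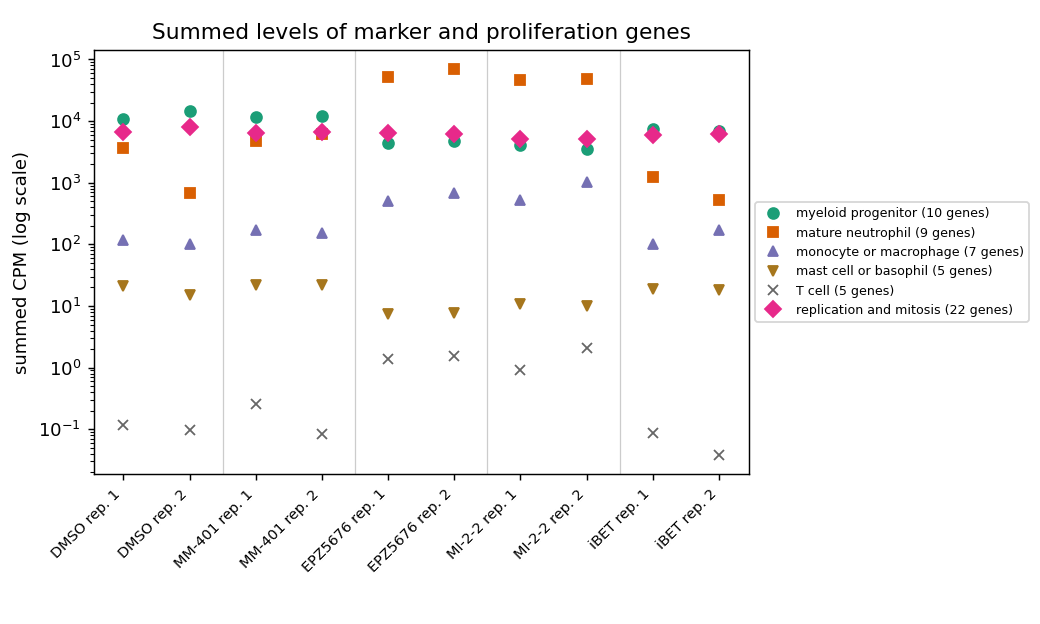
Summed CPM (log axis) of the marker and proliferation lists in each of the 10 libraries, 1 symbol per list. Mature neutrophil genes lie between 46515 and 69541 CPM with EPZ5676 and MI-2-2 and at or under 6184 CPM elsewhere.

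Member reads made up 0.449% to 0.572% of each library's reads. Levels between genes were compared per kilobase of exon. The median member stood at 15.7 CPM per kilobase, 33 of 49 members were above 10, and 2 were below 1. Dnmt1, the maintenance DNA methyltransferase, had the highest level at 112 CPM per kilobase, followed by the Polycomb subunit Suz12 at 77.8. Hdac3 (46.6), Ehmt2 (46.3) and Ezh2 (43.3) came next, and their ranges over the 10 libraries overlapped one another. At the low end, Hdac9 had a level of 0.320 CPM per kilobase and Tet1 of 0.0432, with as few as 7 and 3 reads in a library. Members also differed in how much they varied across libraries. The ratio of the highest to the lowest library had a median of 1.82 over the 49 members, was above 2 for 21, and was above 4 for Hdac9 (29.6), Tet1 (9.58), Kdm6b (6.05), Hdac7 (5.16) and Hdac11 (4.27). The ratio for Hdac9 rests on iBET replicate 1, at 0.309 CPM, while the next lowest library, iBET replicate 2, was at 1.03 CPM. Setd2, at a ratio of 1.24, varied least. Exons of 8 members share bases with another counted gene, over 10% of the exon length for Kat5 (18.9%, Rnaseh2c), Eed (12.6%, E230029C05Rik) and Kdm2b (10.7%, Rnf34), each on the opposite strand.

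**Figure D2:**
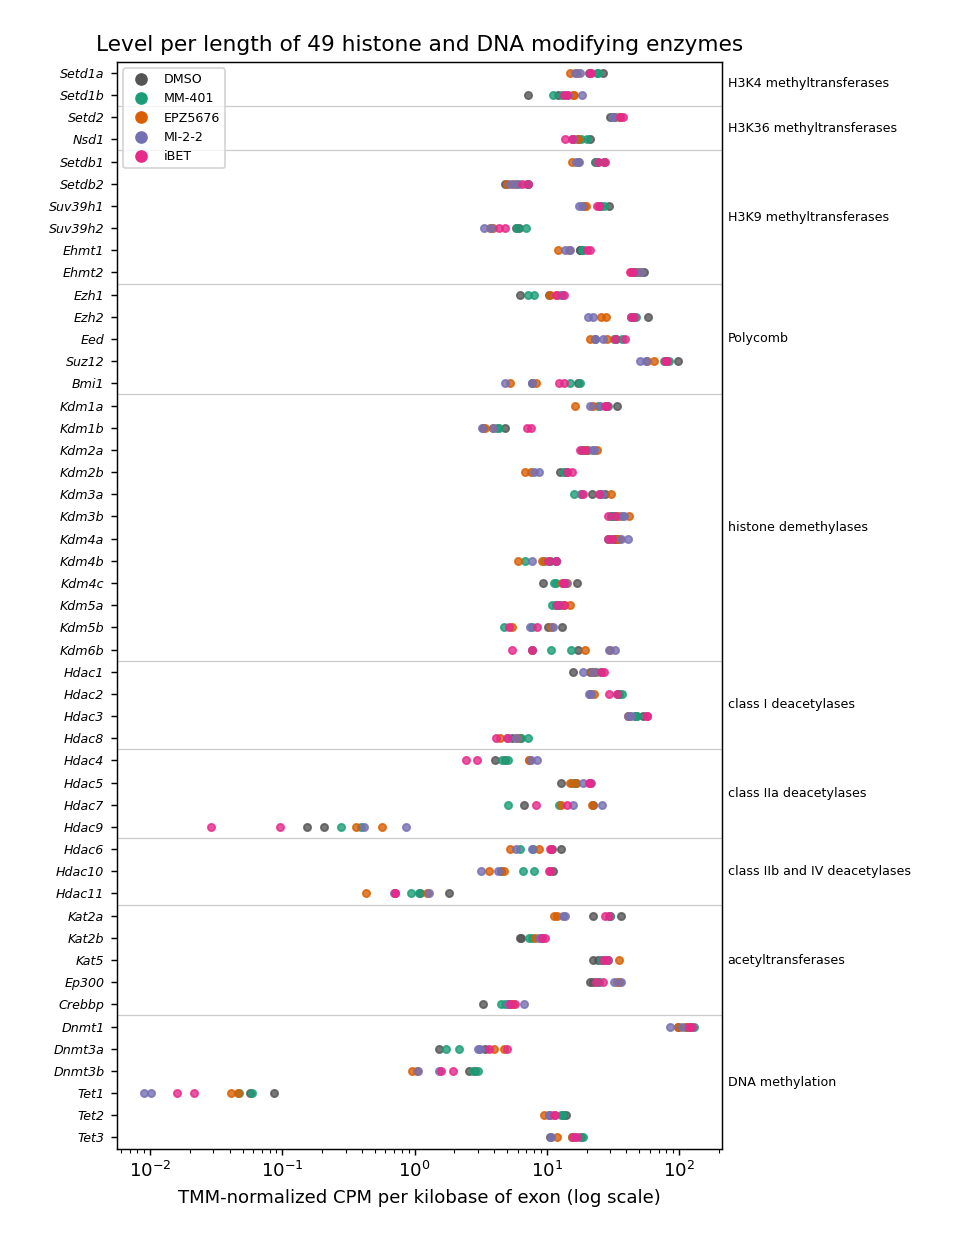
Level of each of the 49 members in CPM per kilobase of exon (log axis), 1 point per library colored by group, with members grouped by role. Dnmt1 is highest at a median of 112 and Tet1 lowest at 0.0432.

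The question put to the members was how far each inhibitor changed their expression. MM-401 was set against DMSO first. edgeR called 0 of 49 members, beside 0.0% of the 12971 genes. At an unadjusted p under 0.05 there were 2 members and 11.2% of genes, and DESeq2 called 0 members and 298 genes. Member differences lay between -0.90 (Kdm5b) and 0.89 (Hdac9) with a median of 0.02, against -0.01 over all genes, and the median SE was 0.17. Without DMSO replicate 1, 1 member was called, Hdac1 (0.64, adjusted p = 0.0344), beside 10.2% of genes. Without DMSO replicate 2, edgeR called 0 members, beside 0.0% of genes, and DESeq2 was not run on those libraries.

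With EPZ5676 against DMSO, 19 of 49 members were called, beside 38.1% of all genes. Of these, 5 rose (18.7% of all genes rose) and 14 fell (19.4% of all genes fell), and the median log2 difference was -0.17 for the members and -0.06 for all genes. Without DMSO replicate 2, the count was 17 (6 rose, 11 fell; 35.5% of all genes), and without DMSO replicate 1 it was 24 (51.0%). It was 17 without EPZ5676 replicate 1 (25.5%) and 9 without EPZ5676 replicate 2 (19.7%). MI-2-2 against DMSO gave 21 called members, beside 41.4% of all genes. There 8 rose (20.2% of all genes) and 13 fell (21.2%), with a median of -0.17 for the members and -0.05 for all genes. The count was 17 without DMSO replicate 2 (5 rose, 12 fell; 37.6%), 24 without DMSO replicate 1 (53.9%), 14 without MI-2-2 replicate 1 (26.2%) and 10 without MI-2-2 replicate 2 (20.7%). With iBET against DMSO, 4 members were called, beside 13.9% of all genes. Of these 2 rose (6.38% of all genes) and 2 fell (7.54%), and the median was -0.04 for members and for all genes. The count was 6 without DMSO replicate 2 (4 rose, 2 fell; 21.6%), 13 without DMSO replicate 1 (27.9%), and 0 without iBET replicate 1 (1.96%) or iBET replicate 2 (1.12%). With the replicate number as a block it was 9 (5 rose, 4 fell; 23.8%). Against DMSO, DESeq2 called 5 members with iBET (4 rose, 1 fell), beside 2830 genes. It called 22 with EPZ5676 (8 rose, 14 fell), beside 5396 genes, and 23 with MI-2-2 (8 rose, 15 fell), beside 5774 genes. The replicate block gave 8 rises and 17 falls with EPZ5676 and 10 and 17 with MI-2-2. Its medians were -0.16 and -0.17 for the members and -0.05 and -0.04 for all genes. These 2 splits under the block stand without the shares of all genes that rose or fell and are no result about the members as a list. The shares of members called lay near those of all genes for EPZ5676 and MI-2-2, so the number of calls is no result about the members as a list.

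Comparisons with MM-401 use no DMSO library in the contrast, although all 10 libraries set the spread. They share the MM-401 libraries with one another, as the comparisons above share DMSO. With EPZ5676 against MM-401, 15 members were called, beside 33.3% of all genes. Of these 3 rose (16.7% of all genes) and 12 fell (16.6%), with a median of -0.20 for the members and 0.01 for all genes. DESeq2 called 6 higher and 13 lower, beside 4843 genes, and the replicate block gave 24 (9 rose, 15 fell; 43.4%). MI-2-2 against MM-401 gave 19, beside 35.7%. There 5 rose (18.0%) and 14 fell (17.6%), with medians of -0.18 and 0.01. With iBET against MM-401, 2 members fell (5.96% of all genes fell) and 0 rose (5.48% rose), together beside 11.4% called, and the medians were 0.06 and -0.02. At an unadjusted p under 0.05 that comparison held 14 members, beside 27.5% of all genes, and DESeq2 called 8 (3 rose, 5 fell), beside 2313 genes, 17.7% of those it tested. The replicate block gave 8 there, 5 higher and 3 lower, beside 19.0% of all genes. Between MI-2-2 and EPZ5676 edgeR called 0 members, beside 2 of 12971 genes (0.0154%). At an unadjusted p under 0.05 there were 2 members and 7.22% of genes, and DESeq2 called 0 members and 146 genes. Member differences between these agents ran from -2.12 for Tet1 to 0.45 for Hdac9 with a median SE of 0.17, which does not show that they act alike. No called member in any comparison had groups that overlapped.

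The counts against MM-401 moved with single libraries. EPZ5676 gave 5 called members without MM-401 replicate 1 (11.9% of all genes), 5 without MM-401 replicate 2 (11.6%), 11 without EPZ5676 replicate 1 (19.6%) and 5 without EPZ5676 replicate 2 (16.3%). MI-2-2 gave 5 (13.9%) and 8 (12.9%) without MM-401 replicates 1 and 2, and 8 (19.5%) and 7 (16.3%) without MI-2-2 replicates 1 and 2. The count for iBET was 0 without MM-401 replicate 1 (1.99%) or 2 (1.37%) and without iBET replicate 1 (2.05%) or 2 (1.67%). The share of all genes called was also lower with each of these libraries left out. A DMSO library enters these contrasts only through the spread, the scaling and the genes tested. Without DMSO replicate 2 the counts were 24 for EPZ5676 (10 rose, 14 fell; 46.9% of all genes), 25 for MI-2-2 (11 rose, 14 fell, beside 48.8%), 11 for iBET (5 rose, 6 fell, beside 24.2%) and 0 for MI-2-2 against EPZ5676 (0.838%). Without DMSO replicate 1 they were 22 (7 rose, 15 fell, beside 47.0%), 25 (9 and 16, beside 48.9%), 10 (4 and 6, beside 23.5%) and 0 (0.816%). A group left with 1 library was assumed to vary like the others. With scaling by total counts in place of TMM, the split of rises and falls against DMSO was 2 and 17 with EPZ5676 and 6 and 18 with MI-2-2, and against MM-401 2 and 15 and 2 and 18. Total-count scaling also shifted the median of all genes to -0.23, -0.20, -0.13 and -0.11 in those comparisons, and the member medians to -0.33, -0.32, -0.34 and -0.31. The splits under that scaling stand without the shares of all genes that rose or fell and are no result about the members as a list.

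**Figure D3:**
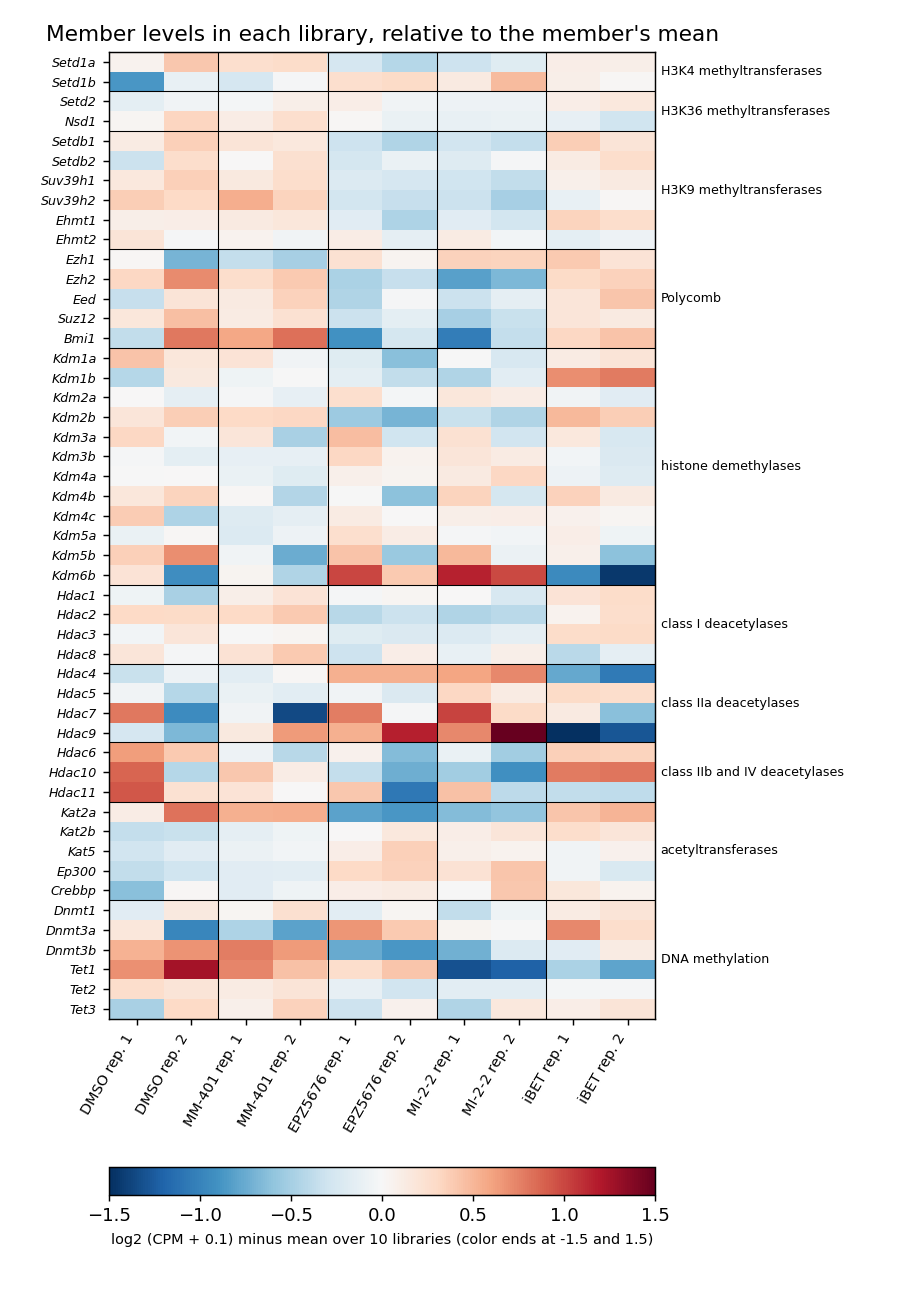
Each member's log2 (CPM + 0.1) in each library minus its mean over the 10 libraries, with color from -1.5 to 1.5 and members grouped by role. Ezh2, Kat2a, Kdm2b and Hdac2 are lower in all 4 EPZ5676 and MI-2-2 libraries than in the other 6.

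**Figure D4:**
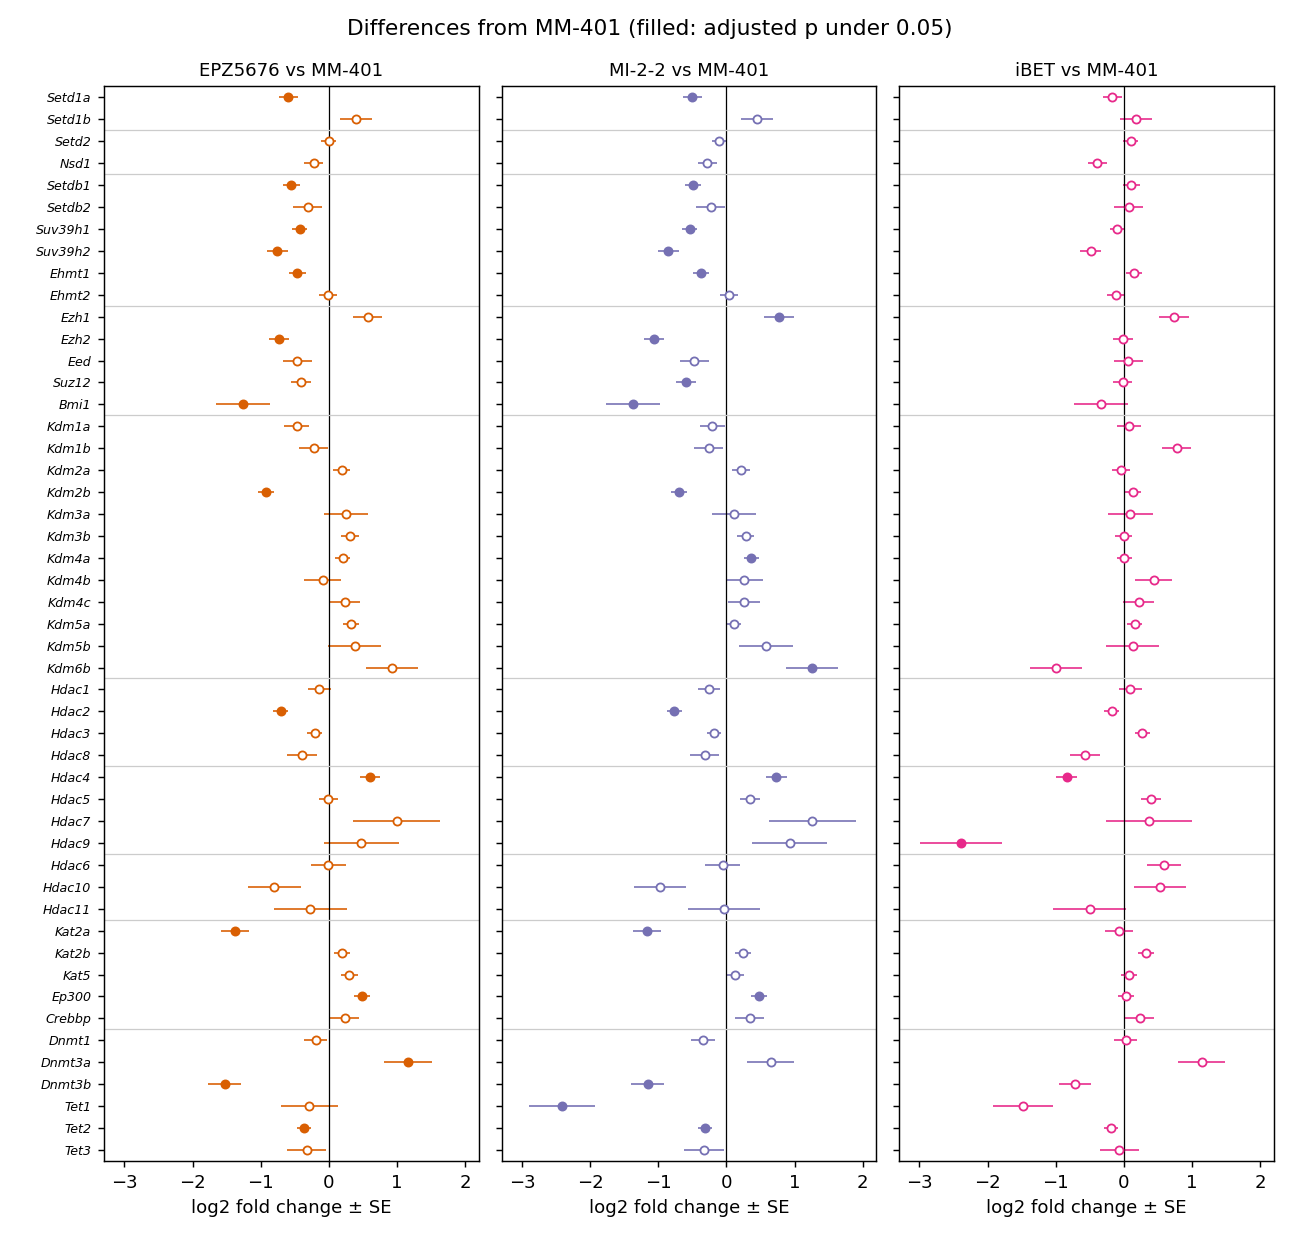
Log2 difference ± SE of each member from MM-401 for EPZ5676, MI-2-2 and iBET, filled where the adjusted p was under 0.05. Filled points number 15, 19 and 2, the lowest being Tet1 with MI-2-2 at -2.41 and the highest Kdm6b with MI-2-2 at 1.26.

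Promoters are shown for the 3 largest of the 12 falls with EPZ5676 against MM-401 (Dnmt3b, Kat2a and Bmi1) and for its 3 rises (Dnmt3a, Hdac4 and Ep300), so that the letters at both ends of that comparison can be read. Each is 300 bases around the annotated start, from RefSeq on build GRCm38.p6, which is not the build mm9 named in the submitters' notes. The table holds 39 of the 49 members, and the first promoter listed for a gene was used. Dnmt3b lies at chr2:153649199-153649498 (+ strand), Kat2a at chr11:100712418-100712717 (-), Bmi1 at chr2:18676768-18677067 (+), Dnmt3a at chr12:3806730-3807029 (+), Hdac4 at chr1:92180292-92180591 (-) and Ep300 at chr15:81585964-81586263 (+). Capitals mark matches, on either strand, to the motifs searched.
Dnmt3b: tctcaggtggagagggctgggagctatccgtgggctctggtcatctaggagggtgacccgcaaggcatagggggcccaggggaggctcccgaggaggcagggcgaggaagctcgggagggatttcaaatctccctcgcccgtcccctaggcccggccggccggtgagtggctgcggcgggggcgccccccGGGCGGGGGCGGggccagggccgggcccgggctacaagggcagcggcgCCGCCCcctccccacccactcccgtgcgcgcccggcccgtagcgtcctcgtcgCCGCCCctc
Kat2a: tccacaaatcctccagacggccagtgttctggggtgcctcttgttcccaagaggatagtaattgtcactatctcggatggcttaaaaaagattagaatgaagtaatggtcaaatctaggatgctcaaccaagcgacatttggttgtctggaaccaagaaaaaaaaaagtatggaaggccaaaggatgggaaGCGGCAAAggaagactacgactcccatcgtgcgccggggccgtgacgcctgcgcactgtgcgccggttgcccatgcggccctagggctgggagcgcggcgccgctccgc
Bmi1: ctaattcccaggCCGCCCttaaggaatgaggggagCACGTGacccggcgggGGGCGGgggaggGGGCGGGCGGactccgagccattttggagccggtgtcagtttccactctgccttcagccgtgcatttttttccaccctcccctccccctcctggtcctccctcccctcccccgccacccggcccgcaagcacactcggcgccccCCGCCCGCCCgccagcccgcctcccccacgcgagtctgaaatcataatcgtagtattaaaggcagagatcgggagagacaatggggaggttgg
Dnmt3a: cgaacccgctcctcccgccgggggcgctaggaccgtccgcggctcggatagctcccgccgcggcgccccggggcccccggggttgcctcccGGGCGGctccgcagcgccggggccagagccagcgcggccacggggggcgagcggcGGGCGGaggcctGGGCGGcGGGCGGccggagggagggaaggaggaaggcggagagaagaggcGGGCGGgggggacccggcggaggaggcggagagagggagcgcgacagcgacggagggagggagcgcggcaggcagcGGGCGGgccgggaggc
Hdac4: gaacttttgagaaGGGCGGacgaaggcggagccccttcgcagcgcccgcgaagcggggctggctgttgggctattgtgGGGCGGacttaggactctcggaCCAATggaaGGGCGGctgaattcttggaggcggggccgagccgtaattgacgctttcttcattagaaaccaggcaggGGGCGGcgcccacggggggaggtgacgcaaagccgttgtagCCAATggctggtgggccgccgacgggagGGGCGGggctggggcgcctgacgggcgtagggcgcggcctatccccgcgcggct
Ep300: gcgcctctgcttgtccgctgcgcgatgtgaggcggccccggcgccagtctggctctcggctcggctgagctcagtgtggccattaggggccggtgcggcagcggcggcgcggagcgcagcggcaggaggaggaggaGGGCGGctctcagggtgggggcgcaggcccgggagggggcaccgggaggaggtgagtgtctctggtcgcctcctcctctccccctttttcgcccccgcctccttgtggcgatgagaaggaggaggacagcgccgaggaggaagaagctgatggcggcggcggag

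The motifs were the GC box GGGCGG, the CCAAT box spelled by its name, the E-box CACGTG, the ETS core CCGGAAG, and an E2F site given as TTTCCCGC or TTTGGCGC or TTTCGCGC or TTTGCCGC. Dnmt3b had 4 GC boxes, Bmi1 6 GC boxes and 1 E-box, Kat2a 1 E2F site, Dnmt3a 6 GC boxes, Hdac4 5 GC boxes and 2 CCAAT boxes, and Ep300 1 GC box. GC boxes were present in 24 of the 39 member promoters, in 8 of the 12 members that fell with EPZ5676 and in 3 of the 3 that rose, against 35.7% of all 32851 promoters. CCAAT boxes were in 18 of 39, 3 of 12 and 1 of 3, against 37.4%. E2F letters were in 3 of 39 and 2 of 12 (2.26% of all promoters), E-boxes in 4 and 1 (7.15%), and the ETS core in 2 and 1 (8.86%), with 0 of 3 among the members that rose. The median number of CpG dinucleotides was 23 in member promoters and 30.5 in those that fell, against 7 in all promoters. The 3 members that rose had 46 (Dnmt3a), 32 (Hdac4) and 30 (Ep300), so a high number was not particular to the falls. A match is a string of letters in this window and was not tested for binding.

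Among the H3K4 methyltransferases, Setd1a and Setd1b, catalytic subunits of separate SET1 complexes, differed in direction. Setd1a was at 137 and 176 CPM in DMSO, 158 and 159.9 with MM-401, 112 and 98.4 with EPZ5676, 107 and 117 with MI-2-2, and 142 and 141 with iBET. The 4 EPZ5676 and MI-2-2 libraries lay below all 6 others. Setd1a fell with EPZ5676, at -0.60 ± 0.14 (adjusted p = 0.0138) against MM-401 and -0.58 ± 0.14 (adjusted p = 0.0139) against DMSO. With MI-2-2 the differences were -0.50 ± 0.14 (adjusted p = 0.0246) and -0.48 ± 0.14 (adjusted p = 0.0254). Setd1a was no longer called for EPZ5676 against DMSO without EPZ5676 replicate 2 (-0.48) or DMSO replicate 2 (-0.36), for MI-2-2 against DMSO without either MI-2-2 library or DMSO replicate 2 (-0.26 to -0.54), for EPZ5676 against MM-401 without EPZ5676 replicate 2 or either MM-401 library (-0.51 to -0.61), and for MI-2-2 against MM-401 without any 1 of the 4 libraries (-0.44 to -0.56). Here and below, values in brackets after a left-out library or another setting are log2 differences. Setd1b was at 64.1 and 108 CPM in DMSO, 98.9 and 116 with MM-401, 139.8 and 143 with EPZ5676, 129 and 163 with MI-2-2, and 125 and 119 with iBET, with DMSO replicate 1 the lowest library. Its libraries with both agents lay above those of DMSO and MM-401. Setd1b rose against DMSO with EPZ5676 (0.72 ± 0.23, adjusted p = 0.0440) and MI-2-2 (0.76 ± 0.23, adjusted p = 0.0328), whereas against MM-401 it stood at 0.40 (adjusted p = 0.222) and 0.44 (adjusted p = 0.172). Setd1b was no longer called for EPZ5676 against DMSO without either EPZ5676 library or DMSO replicate 1 (0.39 to 0.74) or with total-count scaling (0.56) and for MI-2-2 against DMSO without MI-2-2 replicate 2 (0.59) or DMSO replicate 1 (0.44). It was called without DMSO replicate 2 for iBET (0.92) against DMSO. The H3K36 methyltransferases Setd2 and Nsd1 had 0 calls in the 8 comparisons by edgeR. Setd2, which trimethylates H3K36, was the more abundant per length, at 252 and 269 CPM in DMSO, 273 and 297 with MM-401, 298 and 269.5 with EPZ5676, 265 and 264 with MI-2-2, and 299 and 312 with iBET. Its lowest library was in DMSO and its highest with iBET, within a ratio of 1.24. Nsd1, an H3K36 dimethyltransferase, was at 234 and 288 CPM in DMSO, 248 and 273 with MM-401, 233 and 214 with EPZ5676, 213 and 215 with MI-2-2, and 211 and 186 with iBET. Its mean was lowest with iBET, at -0.39 (adjusted p = 0.0917) against DMSO and -0.39 (adjusted p = 0.109) against MM-401. It was called without DMSO replicate 1 for EPZ5676 (-0.36), MI-2-2 (-0.42) and iBET (-0.53) against DMSO.

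The H3K9 methyltransferases place the H3K9 methylation that accompanies silent genes. Of 6, edgeR called 0 higher in any comparison. Against MM-401, 4 fell with EPZ5676 (16.6% of all genes fell) and 4 with MI-2-2 (17.6%). Suv39h2, a trimethylase of pericentric heterochromatin, was at 26.5 and 25.1 CPM in DMSO, 29.9 and 25.7 with MM-401, 16.9 and 16.01 with EPZ5676, 16.3 and 14.4 with MI-2-2, and 18.9 and 20.7 with iBET. All EPZ5676, MI-2-2 and iBET libraries lay below those of DMSO and MM-401. Suv39h2 fell, at -0.76 ± 0.15 (adjusted p = 0.00876) with EPZ5676 and -0.85 ± 0.15 (adjusted p = 0.00520) with MI-2-2 against MM-401, and stood at -0.49 (adjusted p = 0.0795) with iBET. Against DMSO the differences were -0.65 (adjusted p = 0.0133) and -0.75 (adjusted p = 0.00704). Its X-linked paralog Suv39h1 was at 127 and 146 CPM in DMSO, 125 and 136 with MM-401, 98.5 and 95.05 with EPZ5676, 91.96 and 87.6 with MI-2-2, and 119.7 and 124 with iBET. The same 4 libraries were lowest, and DMSO replicate 2, the library low in Xist, was highest. Suv39h1 fell, at -0.43 ± 0.11 (adjusted p = 0.0200) with EPZ5676 and -0.54 ± 0.11 (adjusted p = 0.00801) with MI-2-2 against MM-401, and at -0.49 (adjusted p = 0.0105) and -0.60 (adjusted p = 0.00446) against DMSO. Setdb1, which silences retroelements, was at 108 and 127 CPM in DMSO, 113 and 110.2 with MM-401, 79.9 and 72.4 with EPZ5676, 81.3 and 77.4 with MI-2-2, and 128 and 113 with iBET. The same 4 libraries lay below all 6 others. Setdb1 fell, at -0.55 (adjusted p = 0.0123) with EPZ5676 and -0.49 (adjusted p = 0.0174) with MI-2-2 against MM-401 and at -0.62 (adjusted p = 0.00657) and -0.56 (adjusted p = 0.00871) against DMSO. Ehmt1, a dimethylase that works as a dimer with Ehmt2, was at 106 and 107 CPM in DMSO, 109 and 112 with MM-401, 88.6 and 72.3 with EPZ5676, 89.02 and 82.4 with MI-2-2, and 126 and 120.1 with iBET. Again the EPZ5676 and MI-2-2 libraries were lowest. Ehmt1 fell, at -0.46 (adjusted p = 0.0217) with EPZ5676 and -0.37 (adjusted p = 0.0441) with MI-2-2 against MM-401, and with EPZ5676 against DMSO (-0.41, adjusted p = 0.0311), with MI-2-2 at -0.31 (adjusted p = 0.0685). Its partner Ehmt2, the most abundant of the 6 per length, was at 222 and 192 CPM in DMSO, 202 and 188 with MM-401, 209.9 and 177 with EPZ5676, 212 and 189 with MI-2-2, and 175 and 185 with iBET. Those groups overlapped in most comparisons and edgeR called Ehmt2 in 0 of 8, as it did Setdb2, at 18.7 to 28.2 CPM. Suv39h2 was no longer called for EPZ5676 against DMSO without EPZ5676 replicate 2 (-0.61), for MI-2-2 against DMSO without MI-2-2 replicate 2 (-0.65), for EPZ5676 against MM-401 without EPZ5676 replicate 2 (-0.72) or MM-401 replicate 1 (-0.64), and for MI-2-2 against MM-401 without MM-401 replicate 1 (-0.74). Suv39h1 was no longer called for EPZ5676 against DMSO without EPZ5676 replicate 2 (-0.46), for EPZ5676 against MM-401 without any 1 of the 4 libraries (-0.37 to -0.49), and for MI-2-2 against MM-401 without MI-2-2 replicate 2 (-0.50) or MM-401 replicate 2 (-0.48). Setdb1 was no longer called for MI-2-2 against DMSO without MI-2-2 replicate 2 (-0.52), for EPZ5676 against MM-401 without EPZ5676 replicate 2 or either MM-401 library (-0.48 to -0.57), and for MI-2-2 against MM-401 without any 1 of the 4 libraries (-0.45 to -0.53). Ehmt1 was no longer called for EPZ5676 against DMSO without EPZ5676 replicate 2 (-0.26) or DMSO replicate 2 (-0.37), for EPZ5676 against MM-401 without EPZ5676 replicate 2 or either MM-401 library (-0.32 to -0.48), and for MI-2-2 against MM-401 without any 1 of the 4 libraries (-0.31 to -0.43), with DESeq2 size factors (-0.34), by DESeq2 (-0.34) or with no filter (-0.37). The replicate block added Ehmt1 for MI-2-2 (-0.32, adjusted p = 0.0416) against DMSO.

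Polycomb complexes methylate H3K27 (PRC2) and ubiquitinate histone H2A (PRC1). Ezh2, the main catalytic subunit of PRC2 in dividing cells, was at 125 and 165 CPM in DMSO, 120.5 and 132 with MM-401, 72.5 and 79.2 with EPZ5676, 57.3 and 62.97 with MI-2-2, and 122 and 128 with iBET. MI-2-2 libraries were lowest, EPZ5676 next, and both groups lay below all 6 other libraries. Ezh2 fell, at -0.73 ± 0.15 (adjusted p = 0.00811) with EPZ5676 and -1.07 ± 0.15 (adjusted p = 0.00219) with MI-2-2 against MM-401, and at -0.93 (adjusted p = 0.00265) and -1.27 (adjusted p = 0.000923) against DMSO. Its paralog Ezh1, which takes over in resting cells, was at 62.8 and 38.1 CPM in DMSO, 48.4 and 43.7 with MM-401, 72.4 and 63.8 with EPZ5676, 78.96 and 78.2 with MI-2-2, and 81.5 and 71.2 with iBET. Here MI-2-2 and iBET libraries were among the highest and DMSO replicate 2 was the lowest. Ezh1 rose with MI-2-2 by 0.77 ± 0.22 (adjusted p = 0.0270) against MM-401 and 0.64 (adjusted p = 0.0460) against DMSO, with EPZ5676 at 0.57 (adjusted p = 0.0781) and iBET at 0.73 (adjusted p = 0.0684) against MM-401. Suz12, a core PRC2 subunit and the Polycomb member with the highest level per length, was at 349 and 426 CPM in DMSO, 339 and 365 with MM-401, 248 and 282 with EPZ5676, 219.7 and 247 with MI-2-2, and 354 and 341 with iBET. It was lowest in the 4 EPZ5676 and MI-2-2 libraries. Suz12 fell with MI-2-2, at -0.59 ± 0.14 (adjusted p = 0.0142) against MM-401 and -0.73 (adjusted p = 0.00537) against DMSO, and with EPZ5676, at -0.55 (adjusted p = 0.0178) against DMSO, while EPZ5676 against MM-401 gave -0.41 (adjusted p = 0.0548). Eed, the PRC2 subunit that binds methylated H3K27, was at 47.4 and 68.6 CPM in DMSO, 66.03 and 76.5 with MM-401, 44.1 and 59.3 with EPZ5676, 48.1 and 54.8 with MI-2-2, and 68.2 and 80.3 with iBET. DMSO replicate 1 lay among the EPZ5676 and MI-2-2 libraries. Eed stood at -0.46 (adjusted p = 0.131) with EPZ5676 and -0.47 (adjusted p = 0.121) with MI-2-2 against MM-401. Bmi1, a PRC1 subunit needed for self-renewal of blood stem cells, was at 28.5 and 64.1 CPM in DMSO, 55.3 and 65.4 with MM-401, 19.6 and 30.7 with EPZ5676, 17.99 and 28.7 with MI-2-2, and 45.7 and 49.9 with iBET. DMSO replicate 1 overlapped the EPZ5676 and MI-2-2 libraries and DMSO replicate 2 did not. Against MM-401, Bmi1 fell, at -1.26 ± 0.40 (adjusted p = 0.0426) with EPZ5676 and -1.37 ± 0.40 (adjusted p = 0.0303) with MI-2-2, and against DMSO it stood at -0.88 (adjusted p = 0.113) and -0.99 (adjusted p = 0.0785). Ezh2 was no longer called for EPZ5676 against MM-401 without MM-401 replicate 2 (-0.67). Ezh2 was also called without DMSO replicate 1 for iBET (-0.39) against DMSO. Ezh1 was no longer called for MI-2-2 against DMSO without either MI-2-2 library or DMSO replicate 2 (0.36 to 0.65) or with total-count scaling (0.48) and for MI-2-2 against MM-401 without any 1 of the 4 libraries (0.70 to 0.85) or with total-count scaling (0.65). Ezh1 was also called without DMSO replicate 1 for EPZ5676 (0.84) and iBET (1.01) against DMSO. Suz12 was no longer called for EPZ5676 against DMSO without EPZ5676 replicate 1 (-0.46) or DMSO replicate 2 (-0.37) and for MI-2-2 against MM-401 without MI-2-2 replicate 1 or either MM-401 library (-0.51 to -0.65). Bmi1 was no longer called for EPZ5676 against MM-401 without any 1 of the 4 libraries (-0.97 to -1.62) and for MI-2-2 against MM-401 without any 1 of the 4 libraries (-1.07 to -1.74). Bmi1 was also called without DMSO replicate 1 for EPZ5676 (-1.35) and MI-2-2 (-1.45) against DMSO. Among Polycomb genes the replicate block added Ezh1 for iBET (0.62, adjusted p = 0.0349) against DMSO and EPZ5676 (0.56, adjusted p = 0.0288) and iBET (0.73, adjusted p = 0.0238) against MM-401. It also added Eed for EPZ5676 (-0.47, adjusted p = 0.0148) and MI-2-2 (-0.47, adjusted p = 0.0143) against MM-401, Suz12 for EPZ5676 (-0.41, adjusted p = 0.0224) against MM-401, and Bmi1 for EPZ5676 (-0.83, adjusted p = 0.0247) and MI-2-2 (-0.94, adjusted p = 0.0142) against DMSO.

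The 12 demethylases act on several lysines of histone H3. Kdm2b, an H3K36 demethylase that brings a variant PRC1 to CpG islands, was at 73.3 and 83.5 CPM in DMSO, 79.1 and 79.95 with MM-401, 44.2 and 39.8 with EPZ5676, 51.3 and 47.2 with MI-2-2, and 90.6 and 83.7 with iBET. Both EPZ5676 libraries and both MI-2-2 libraries lay below all others, and iBET libraries were the highest. Kdm2b fell, at -0.92 ± 0.12 (adjusted p = 0.00184) with EPZ5676 and -0.69 ± 0.12 (adjusted p = 0.00443) with MI-2-2 against MM-401, and at -0.90 (adjusted p = 0.00146) and -0.67 (adjusted p = 0.00382) against DMSO. Kdm6b, which removes methyl groups from H3K27 and is induced in activated myeloid cells, was at 114 and 51.6 CPM in DMSO, 101 and 72.01 with MM-401, 198 and 130.1 with EPZ5676, 219 and 195 with MI-2-2, and 50.96 and 36.2 with iBET. Libraries with EPZ5676 and MI-2-2 lay above all others and those with iBET below, and the DMSO libraries lay far apart. Kdm6b rose with MI-2-2 by 1.26 ± 0.38 (adjusted p = 0.0356) against MM-401 and 1.33 ± 0.38 (adjusted p = 0.0260) against DMSO. EPZ5676 stood at 0.92 (adjusted p = 0.0963) and iBET at -0.99 (adjusted p = 0.138) against MM-401. Kdm1b, a flavin-dependent H3K4 demethylase, was at 16.3 and 24.3 CPM in DMSO, 21.01 and 21.7 with MM-401, 19.7 and 16.9 with EPZ5676, 15.999 and 19.7 with MI-2-2, and 35.5 and 37.5 with iBET. The iBET libraries lay above all 8 others, which were at 16.0 to 24.3 CPM. Kdm1b rose with iBET against DMSO by 0.85 ± 0.21 (adjusted p = 0.0382), and against MM-401 the difference was 0.77 (adjusted p = 0.0547). Its relative Kdm1a, a drug target in myeloid leukemia also known as LSD1, was at 104 and 86.7 CPM in DMSO, 89.2 and 74.8 with MM-401, 68.2 and 49.99 with EPZ5676, 76.8 and 65.4 with MI-2-2, and 84.02 and 88.2 with iBET. Both EPZ5676 libraries lay below both DMSO libraries. Kdm1a fell with EPZ5676 against DMSO (-0.69 ± 0.18, adjusted p = 0.0197), with MI-2-2 at -0.42 (adjusted p = 0.0932). Kdm4a, an H3K9 and H3K36 demethylase and the most abundant of the 12 per length, was at 167 and 169 CPM in DMSO, 156 and 148 with MM-401, 177 and 172 with EPZ5676, 183 and 207 with MI-2-2, and 158 and 146 with iBET. Its MI-2-2 libraries were the highest, above those of all other groups. Kdm4a rose with MI-2-2 against MM-401 by 0.36 ± 0.11 (adjusted p = 0.0318). The other 7 (Kdm2a, Kdm3a, Kdm3b, Kdm4b, Kdm4c, Kdm5a and Kdm5b) were called in 0 of 8 comparisons by edgeR. Among them Kdm5b, an H3K4 demethylase, was at 94.04 and 119 CPM in DMSO, 70.6 and 43.7 with MM-401, 98.7 and 49.7 with EPZ5676, 102 and 69.1 with MI-2-2, and 76.9 and 47.9 with iBET. Its replicates lay far apart outside DMSO. Its lowest estimate was -0.90 (adjusted p = 0.455) for MM-401 against DMSO.

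Single libraries decided several of these demethylase calls. Kdm6b was no longer called for MI-2-2 against DMSO without either MI-2-2 library or DMSO replicate 2 (0.90 to 1.41) and for MI-2-2 against MM-401 without any 1 of the 4 libraries (1.03 to 1.53) or with total-count scaling (1.13). Without DMSO replicate 1, the rise of Kdm6b with MI-2-2 against DMSO was still called, at 2.01. Kdm6b was in turn called without DMSO replicate 1 for EPZ5676 (1.67) against DMSO and without DMSO replicate 2 for iBET (-1.38) against DMSO. Kdm1b was no longer called for iBET against DMSO without either iBET library (0.81 to 0.90). Kdm1a was no longer called for EPZ5676 against DMSO without EPZ5676 replicate 2 (-0.48) or DMSO replicate 1 (-0.55). Kdm1a was also called without EPZ5676 replicate 1 for EPZ5676 (-0.71) against MM-401. Kdm4a was no longer called for MI-2-2 against MM-401 without any 1 of the 4 libraries (0.28 to 0.45), with no filter (0.36) or with total-count scaling (0.24). Kdm4c was called without DMSO replicate 1 for EPZ5676 (0.53), MI-2-2 (0.56) and iBET (0.52) against DMSO. Demethylase calls added by the replicate block were Kdm6b for EPZ5676 (1.04, adjusted p = 0.00555) and iBET (-0.86, adjusted p = 0.0240) against DMSO and EPZ5676 (0.91, adjusted p = 0.0102) and iBET (-0.99, adjusted p = 0.0175) against MM-401. Further ones were Kdm1a for MI-2-2 (-0.42, adjusted p = 0.0267) against DMSO and EPZ5676 (-0.48, adjusted p = 0.0197) against MM-401, Kdm1b for iBET (0.77, adjusted p = 0.0333) against MM-401, Kdm3b for EPZ5676 (0.31, adjusted p = 0.0462) against MM-401, Kdm4b for EPZ5676 (-0.58, adjusted p = 0.0442) against DMSO, and Kdm5a for EPZ5676 (0.32, adjusted p = 0.0496) against MM-401.

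Class I deacetylases act in the nuclear corepressor complexes. Hdac2, which pairs with Hdac1 in those complexes, was at 148 and 146 CPM in DMSO, 147 and 157 with MM-401, 89.8 and 96.1 with EPZ5676, 87.8 and 90.7 with MI-2-2, and 124 and 144 with iBET. All 4 EPZ5676 and MI-2-2 libraries lay under 97 CPM and the other 6 above 123 CPM. Hdac2 fell, at -0.71 ± 0.11 (adjusted p = 0.00338) with EPZ5676 and -0.77 ± 0.11 (adjusted p = 0.00250) with MI-2-2 against MM-401, and at -0.66 (adjusted p = 0.00335) and -0.72 (adjusted p = 0.00228) against DMSO. In these 4 comparisons Hdac2 was called under every test setting and without each library of the groups compared, though its falls were under 2-fold. Hdac1 was at 32.2 to 54.9 CPM with 0 calls by edgeR, its lowest library being DMSO replicate 2. It was called without DMSO replicate 1 for MM-401 (0.64), EPZ5676 (0.50) and iBET (0.74) against DMSO. Hdac3, the catalytic subunit of the NCoR and SMRT complexes and the most abundant per length, was at 93.6 and 109 CPM in DMSO, 95.999 and 97.7 with MM-401, 84.8 and 82.9 with EPZ5676, 82.99 and 87.8 with MI-2-2, and 117 and 117 with iBET. iBET libraries were highest and those with EPZ5676 and MI-2-2 lowest. Its differences from MM-401 were -0.21 (adjusted p = 0.167) with EPZ5676, -0.18 (adjusted p = 0.216) with MI-2-2 and 0.27 (adjusted p = 0.147) with iBET. Hdac3 was called without DMSO replicate 1 for EPZ5676 (-0.38) and MI-2-2 (-0.35) against DMSO. The X-linked Hdac8 was at 12.1 and 10.5 CPM in DMSO, 12.4 and 13.9 with MM-401, 8.59 and 11.4 with EPZ5676, 9.799 and 11.3 with MI-2-2, and 7.9996 and 9.68 with iBET. Its groups overlapped in part, with iBET the lowest on average, at -0.57 (adjusted p = 0.133) against MM-401, and DMSO replicate 2 lay below DMSO replicate 1.

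Class IIa deacetylases shuttle between cytoplasm and nucleus and bind MEF2 factors. Hdac4 was at 32.7 and 39.2 CPM in DMSO, 36.8 and 41.5 with MM-401, 59.4 and 59.8 with EPZ5676, 61.9 and 68.1 with MI-2-2, and 24.04 and 19.7 with iBET. The 4 EPZ5676 and MI-2-2 libraries were the highest, the iBET libraries the lowest, and DMSO and MM-401 between them. Hdac4 rose by 0.61 ± 0.15 (adjusted p = 0.0178) with EPZ5676 and 0.73 ± 0.15 (adjusted p = 0.00820) with MI-2-2 and fell, at -0.84 ± 0.15 (adjusted p = 0.0137) with iBET, all against MM-401. Against DMSO the differences were 0.73 (adjusted p = 0.00757), 0.86 (adjusted p = 0.00378) and -0.71 (adjusted p = 0.0217). Hdac9, known as a repressor of MEF2 targets, was at 2.22 and 1.63 CPM in DMSO, 2.96 and 4.201 with MM-401, 3.88 and 6.07 with EPZ5676, 4.42 and 9.17 with MI-2-2, and 0.309 and 1.03 with iBET, with 7 reads in the lowest library. iBET libraries were again lowest, and MI-2-2 replicate 2 was highest, and the MI-2-2 and EPZ5676 groups overlapped. Hdac9 fell with iBET against MM-401, at -2.39 ± 0.61 (adjusted p = 0.0433) and rose with MI-2-2 against DMSO by 1.82 ± 0.57 (adjusted p = 0.0350). Hdac5, the most abundant of the class per length, was at 93.9 and 72.6 CPM in DMSO, 91.3 and 87.6 with MM-401, 93.8 and 84.03 with EPZ5676, 121 and 106 with MI-2-2, and 118 and 117 with iBET. MI-2-2 and iBET libraries were above those of DMSO and MM-401. Hdac5 rose with MI-2-2 against DMSO by 0.45 ± 0.14 (adjusted p = 0.0372), with iBET at 0.50 (adjusted p = 0.0551). Hdac7 was at 111 and 33.2 CPM in DMSO, 61.7 and 25.1 with MM-401, 109.6 and 63.5 with EPZ5676, 129 and 78.4 with MI-2-2, and 70.4 and 41.3 with iBET, a choice made after its values were seen. Replicates of each group lay far apart, replicate 1 being the higher in all 5 groups, and its largest estimate, 1.26 ± 0.64 for MI-2-2 against MM-401, had an adjusted p of 0.158. Hdac4 was no longer called for iBET against DMSO without either iBET library (-0.58 to -0.86), for EPZ5676 against MM-401 without any 1 of the 4 libraries (0.52 to 0.69), for MI-2-2 against MM-401 without MI-2-2 replicate 2 (0.66) or MM-401 replicate 1 (0.65), and for iBET against MM-401 without any 1 of the 4 libraries (-0.70 to -0.98). Hdac9 was no longer called for MI-2-2 against DMSO without MI-2-2 replicate 2 (1.20) or DMSO replicate 2 (1.65) and for iBET against MM-401 without any 1 of the 4 libraries (-1.78 to -3.51). Hdac5 was no longer called for MI-2-2 against DMSO without either MI-2-2 library or DMSO replicate 2 (0.31 to 0.55) or with total-count scaling (0.30). Hdac5 was also called without DMSO replicate 1 for iBET (0.70) against DMSO. Under the replicate block, further calls in this class were Hdac7 for MI-2-2 (0.69, adjusted p = 0.0498) against DMSO and EPZ5676 (1.08, adjusted p = 0.0118) and MI-2-2 (1.36, adjusted p = 0.00463) against MM-401. Others were Hdac5 for iBET (0.51, adjusted p = 0.0170) against DMSO and MI-2-2 (0.34, adjusted p = 0.0358) and iBET (0.40, adjusted p = 0.0422) against MM-401, and Hdac9 for EPZ5676 (1.26, adjusted p = 0.0472) and iBET (-1.66, adjusted p = 0.0470) against DMSO.

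Among the class IIb and IV deacetylases, the X-linked Hdac6, which deacetylates tubulin, had the highest level per length. It was at 53.4 and 45.4 CPM in DMSO, 32.8 and 25.8 with MM-401, 36.1 and 21.98 with EPZ5676, 32.3 and 24.03 with MI-2-2, and 44.5 and 43.5 with iBET. Both DMSO libraries lay above every library of MM-401, EPZ5676 and MI-2-2, and those with iBET were near DMSO. Hdac6 fell against DMSO with EPZ5676 (-0.77 ± 0.26, adjusted p = 0.0468) and MI-2-2 (-0.81 ± 0.26, adjusted p = 0.0357), and MM-401 stood at -0.75 (adjusted p = 0.352). Against MM-401, EPZ5676 and MI-2-2 were at -0.01 and -0.06. Hdac6 was no longer called for EPZ5676 against DMSO without EPZ5676 replicate 2 or either DMSO library (-0.45 to -0.85) or with DESeq2 size factors (-0.73) and for MI-2-2 against DMSO without any 1 of the 4 libraries (-0.61 to -1.04). Hdac10, a polyamine deacetylase, was at 27.9 and 11.4 CPM in DMSO, 20.2 and 16.4 with MM-401, 11.9 and 9.13 with EPZ5676, 10.6 and 7.999 with MI-2-2, and 26.2 and 26.7 with iBET. DMSO replicate 1 lay with the iBET libraries and DMSO replicate 2 with those of EPZ5676. It stood at -0.80 (adjusted p = 0.144) with EPZ5676 and -0.98 (adjusted p = 0.0826) with MI-2-2 against MM-401, and was called without DMSO replicate 1 for iBET (1.22) against DMSO and without DMSO replicate 2 for EPZ5676 (-1.38) and MI-2-2 (-1.55) against DMSO. Hdac11, the class IV enzyme, was at 1.13 to 4.83 CPM with 0 calls by edgeR. In this class the replicate block added Hdac6 for iBET (0.61, adjusted p = 0.0435) against MM-401, and Hdac10 for EPZ5676 (-0.84, adjusted p = 0.0490) and MI-2-2 (-1.01, adjusted p = 0.0237) against DMSO and MI-2-2 (-0.98, adjusted p = 0.0289) against MM-401.

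The acetyltransferases held opposite movements. Kat2a, the GCN5 subunit of SAGA, was at 67.95 and 111 CPM in DMSO, 91.1 and 91.97 with MM-401, 36.1 and 34.3 with EPZ5676, 40.2 and 41.7 with MI-2-2, and 84.3 and 89.9999 with iBET. EPZ5676 and MI-2-2 libraries lay at 34.3 to 41.7 CPM, below all 6 others. Kat2a fell, at -1.38 ± 0.21 (adjusted p = 0.00298) with EPZ5676 and -1.16 ± 0.21 (adjusted p = 0.00500) with MI-2-2 against MM-401, and at -1.35 (adjusted p = 0.00247) and -1.13 (adjusted p = 0.00438) against DMSO. Without DMSO replicate 2 the falls against DMSO were -0.92 and -0.70 and were still called. All 4 calls were kept under every test setting and without each library of the groups compared. Kat2a was also called without DMSO replicate 1 for iBET (-0.35) against DMSO. Ep300, which acetylates H3K27 at enhancers, was at 204 and 214 CPM in DMSO, 234 and 236 with MM-401, 324 and 334 with EPZ5676, 306 and 351 with MI-2-2, and 254 and 225 with iBET. Here the same 4 libraries were the highest, above 305 CPM, with no overlap. Ep300 rose by 0.49 ± 0.12 (adjusted p = 0.0170) with EPZ5676 and 0.48 ± 0.12 (adjusted p = 0.0166) with MI-2-2 against MM-401, and by 0.65 (adjusted p = 0.00470) and 0.65 (adjusted p = 0.00446) against DMSO. Kat2b, the PCAF paralog of Kat2a, was at 29.2 and 29.7 CPM in DMSO, 34.2 and 35.96 with MM-401, 37.7 and 42.04 with EPZ5676, 40.3 and 42.7 with MI-2-2, and 44.9 and 42.6 with iBET. DMSO libraries were lowest and iBET libraries highest on average. Kat2b rose against DMSO by 0.44 ± 0.12 (adjusted p = 0.0220) with EPZ5676, 0.49 ± 0.12 (adjusted p = 0.0124) with MI-2-2 and 0.57 ± 0.12 (adjusted p = 0.0201) with iBET, while MM-401 stood at 0.25 (adjusted p = 0.481). Kat5, the TIP60 enzyme and the most abundant of the 5 per length, was at 50.5 and 54.8 CPM in DMSO, 57.9 and 59.95 with MM-401, 65.9 and 78.9 with EPZ5676, 64.95 and 63.9 with MI-2-2, and 59.4 and 64.6 with iBET. Both EPZ5676 libraries were above all others. Kat5 rose with EPZ5676 against DMSO by 0.46 ± 0.12 (adjusted p = 0.0205). Crebbp, the close relative of Ep300, was at 35.7 and 55.7 CPM in DMSO, 48.9 and 52.5 with MM-401, 58.9 and 59.9 with EPZ5676, 55.1 and 73.1 with MI-2-2, and 61.8 and 57.1 with iBET. DMSO replicate 1 was the lowest library. With 0 calls by edgeR, it stood at 0.38 (adjusted p = 0.195) with EPZ5676 and 0.49 (adjusted p = 0.103) with MI-2-2 against DMSO. It was called without DMSO replicate 2 for EPZ5676 (0.76), MI-2-2 (0.88) and iBET (0.73) against DMSO. Ep300 was no longer called for EPZ5676 against MM-401 without any 1 of the 4 libraries (0.46 to 0.51) and for MI-2-2 against MM-401 without MI-2-2 replicate 2 or either MM-401 library (0.38 to 0.49). Kat2b was no longer called for EPZ5676 against DMSO without EPZ5676 replicate 2 (0.36) or with total-count scaling (0.27), for MI-2-2 against DMSO without MI-2-2 replicate 2 (0.46), and for iBET against DMSO without either iBET library (0.54 to 0.61). Kat5 was no longer called for EPZ5676 against DMSO without EPZ5676 replicate 2 (0.33) or with total-count scaling (0.29). For acetyltransferases the replicate block added Kat5 for MI-2-2 (0.29, adjusted p = 0.0435) against DMSO and EPZ5676 (0.29, adjusted p = 0.0481) against MM-401.

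In DNA methylation, Dnmt1 copies the mark at replication, Dnmt3a and Dnmt3b set it anew, and the Tet enzymes oxidize it. Dnmt3b was at 11.1 and 12.3 CPM in DMSO, 13.1 and 11.97 with MM-401, 4.51 and 4.14 with EPZ5676, 4.596 and 6.61 with MI-2-2, and 6.81 and 8.38 with iBET. Libraries with EPZ5676, MI-2-2 and iBET all lay below those of DMSO and MM-401. Dnmt3b fell, at -1.53 ± 0.24 (adjusted p = 0.00365) with EPZ5676 and -1.16 ± 0.24 (adjusted p = 0.00860) with MI-2-2 against MM-401, and at -1.43 (adjusted p = 0.00361) and -1.06 (adjusted p = 0.0102) against DMSO. With iBET it stood at -0.72 (adjusted p = 0.0929) and -0.62 (adjusted p = 0.117). Dnmt3a was at 33.5 and 15.1 CPM in DMSO, 21.6 and 17.1 with MM-401, 47.3 and 39.4 with EPZ5676, 30.7 and 29.8 with MI-2-2, and 49.3 and 35.9 with iBET. DMSO replicate 2 and the MM-401 libraries were lowest, and DMSO replicate 1 lay between the MI-2-2 and iBET libraries. Dnmt3a rose with EPZ5676 against MM-401 by 1.16 ± 0.35 (adjusted p = 0.0360), with MI-2-2 at 0.65 (adjusted p = 0.178) and iBET at 1.14 (adjusted p = 0.0751). Whether Dnmt3a and Dnmt3b differ from each other in their response was not tested. Dnmt1 was at 618 and 769 CPM in DMSO, 707 and 818 with MM-401, 624 and 708 with EPZ5676, 539 and 661 with MI-2-2, and 756 and 795 with iBET. Its groups overlapped in all comparisons but MI-2-2 against MM-401, which had the lowest estimate (-0.34, adjusted p = 0.149). Tet1 was at 0.818 and 1.25 CPM in DMSO, 0.845 and 0.672 with MM-401, 0.582 and 0.659 with EPZ5676, 0.130 and 0.146 with MI-2-2, and 0.309 and 0.230 with iBET, with 3 reads in the lowest library. MI-2-2 libraries were lowest and iBET next, below the 6 others. Tet1 fell with MI-2-2, at -2.41 ± 0.48 (adjusted p = 0.00754) against MM-401 and -2.84 ± 0.48 (adjusted p = 0.00314) against DMSO, and with iBET, at -1.92 ± 0.44 (adjusted p = 0.0288) against DMSO. Tet2, often mutated in myeloid disease, was at 128 and 122 CPM in DMSO, 117 and 122 with MM-401, 98.1 and 87.8 with EPZ5676, 96.1 and 95.6 with MI-2-2, and 104 and 105 with iBET. The 4 EPZ5676 and MI-2-2 libraries were lowest and those with iBET next. Tet2 fell, at -0.36 (adjusted p = 0.0267) and -0.32 (adjusted p = 0.0396) against MM-401 with EPZ5676 and MI-2-2, and at -0.43 (adjusted p = 0.0124) and -0.39 (adjusted p = 0.0172) against DMSO. Tet3, at 124 to 219.6 CPM, was called in 0 of 8 comparisons by edgeR. Dnmt3b was no longer called for MI-2-2 against DMSO without MI-2-2 replicate 1 (-0.82) and for MI-2-2 against MM-401 without MI-2-2 replicate 1 (-0.92) or MM-401 replicate 1 (-1.09). Dnmt3a was no longer called for EPZ5676 against MM-401 without any 1 of the 4 libraries (1.00 to 1.34) or with total-count scaling (1.02). Dnmt3a was also called without DMSO replicate 1 for EPZ5676 (1.53), MI-2-2 (1.01) and iBET (1.50) against DMSO. Tet1 was no longer called for iBET against DMSO without either iBET library or DMSO replicate 2 (-1.59 to -2.13) or by DESeq2 (-1.96) and for MI-2-2 against MM-401 without either MI-2-2 library or MM-401 replicate 1 (-2.23 to -2.49). Tet2 was no longer called for EPZ5676 against DMSO without EPZ5676 replicate 2 (-0.35), for MI-2-2 against DMSO without either MI-2-2 library (-0.38 to -0.39), for EPZ5676 against MM-401 without EPZ5676 replicate 2 or either MM-401 library (-0.29 to -0.40), and for MI-2-2 against MM-401 without any 1 of the 4 libraries (-0.29 to -0.35), with DESeq2 size factors (-0.29) or with no filter (-0.32). Of these genes the replicate block added Dnmt3a for EPZ5676 (0.89, adjusted p = 0.0205) and iBET (0.86, adjusted p = 0.0425) against DMSO and iBET (1.13, adjusted p = 0.0207) against MM-401, and Dnmt1 for MI-2-2 (-0.35, adjusted p = 0.0453) against MM-401.

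**Figure D5:**
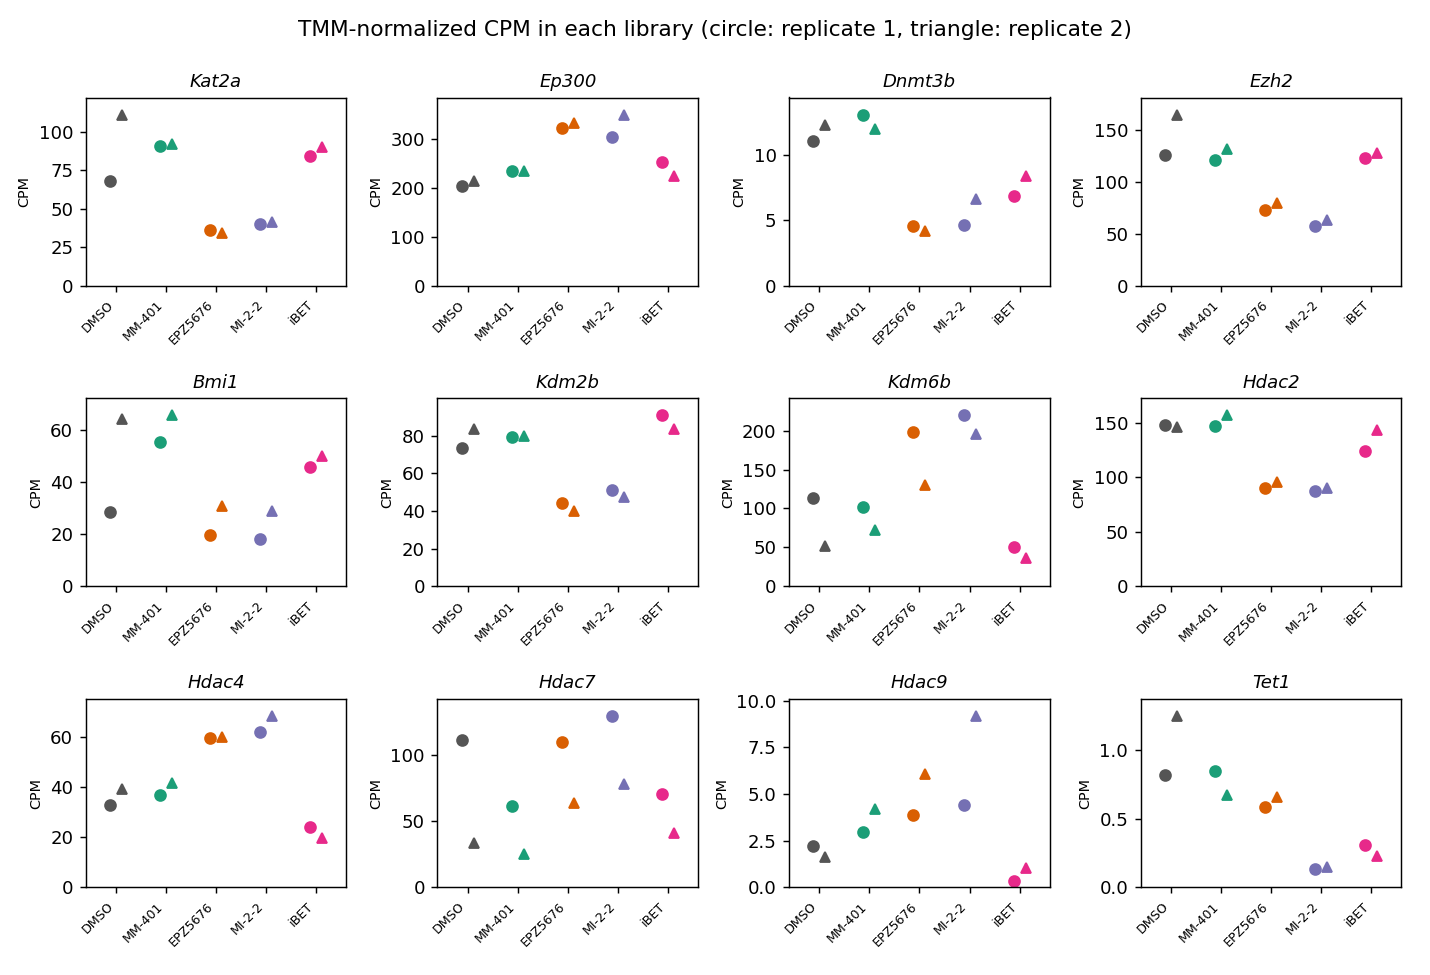
CPM of 12 members in each library, by group on the horizontal axis, with circles for replicate 1 and triangles for replicate 2 and vertical axes that start at 0. Kat2a lies at 34.3 to 41.7 CPM with EPZ5676 and MI-2-2 and at 68.0 CPM or more elsewhere, and Ep300 is higher in those 4 libraries.

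Other chromatin regulators were read from a list of 93 genes beside the members, of which 91 were tested. With EPZ5676 against MM-401, 12 rose and 20 fell (median -0.12), beside 16.7% and 16.6% of all genes, and with MI-2-2 13 rose and 22 fell (median -0.10), beside 18.0% and 17.6%. iBET against MM-401 gave 7 and 3 (median 0.06), beside 5.48% and 5.96%. Of 7 arginine methyltransferases, 1 rose and 6 fell against MM-401 with EPZ5676 (median -1.02) and likewise with MI-2-2 (median -1.11), to be read beside the same shares of all genes. Prmt5 was at 127 and 168 CPM in DMSO, 164 and 148 with MM-401, 60.1 and 48.4 with EPZ5676, 64.7 and 54.7 with MI-2-2, and 124 and 129 with iBET, and fell, at -1.52 (adjusted p = 0.00143) with EPZ5676. Prmt2 was at 2.41 and 2.16 CPM in DMSO, 1.48 and 1.64 with MM-401, 6.16 and 4.24 with EPZ5676, 4.94 and 9.46 with MI-2-2, and 6.81 and 6.81 with iBET, and rose by 1.73 (adjusted p = 0.0102). The H3K9 and H3K27 demethylase Kdm7a was at 37.9 and 44.3 CPM in DMSO, 31.8 and 33.02 with MM-401, 216 and 230.0 with EPZ5676, 186 and 271 with MI-2-2, and 64.8 and 63.1 with iBET. Kdm7a rose by 2.78 (adjusted p = 0.000354) with EPZ5676 and 2.82 (adjusted p = 0.000323) with MI-2-2 against MM-401. The other roles are given for EPZ5676 against MM-401, with the largest called differences. Of 20 lysine methyltransferases and partners 2 rose and 3 fell, Smyd2 (-1.38) and Dpy30 (-0.74) among the latter, and of 22 further Polycomb genes 2 rose, Phf1 (1.61) and Phc1 (1.32), and 5 fell. Of 8 other acetyltransferases 2 rose, Ncoa3 (1.15) and Ncoa1 (1.00), and of 7 sirtuins 2 rose and 1 fell, with Sirt2 at 0.96 and Sirt3 at -1.20. Of 13 corepressor subunits 1 rose and 3 fell, Mbd3 (-0.87) and Mta1 (-0.82) among them, and of 8 DNA methylation partners 1 rose and 2 fell, Idh2 (-1.27) and Uhrf1 (-0.53). Dnmt3l, the cofactor of the Dnmt3 enzymes, was chosen after its values were seen and was at 15.97 and 19.8 CPM in DMSO, 21.6 and 21.7 with MM-401, 15.6 and 15.8 with EPZ5676, 19.1 and 15.5 with MI-2-2, and 2.25 and 3.02 with iBET. It fell with iBET against MM-401, at -3.03 (adjusted p = 0.000659), with both iBET libraries below all others.

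Ezh2 and Dnmt1 are known to be more abundant in dividing cells, so 22 replication and mitosis genes were read beside them. Their summed level was 6589 and 7944 CPM in DMSO, 6393 and 6612 with MM-401, 6359 and 6215 with EPZ5676, 5205 and 5031 with MI-2-2, and 6035 and 6074 with iBET. With MI-2-2 against MM-401, 0 of the 22 rose by edgeR and 8 fell, beside 18.0% and 17.6% of all genes, and all 8 are Mcm or Rrm genes of DNA replication. EPZ5676 gave 3 and 5, beside 16.7% and 16.6%, where the 5 falls were Mcm or Rrm genes and the rises were Mki67, Birc5 and Ccnb2, so their sum joins opposite movements. iBET gave 0 and 1, beside 5.48% and 5.96%. By group mean, Ezh2, Suz12 and Dnmt1 were lowest with MI-2-2, the group with the lowest summed level. For Dnmt1 the MI-2-2 libraries overlapped those of DMSO and EPZ5676. The part of proliferation in these differences was not tested.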

How the data were processed

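RNA was sequenced from 10 libraries of MAF9 cells in 5 groups of 2, biological duplicates per the labels, which say nothing more on separate cultures. The values are read counts per gene that the authors deposited without normalization. The submitters' processing notes name TopHat2, Subread, DESeq and mm9 with no role or version. Strand was not stated, so antisense reads cannot be told apart. In R 4.3.3, edgeR 4.0.16 (filterByExpr, TMM, glmQLFit, glmQLFTest) was fitted to all libraries, a coefficient for each group, with Benjamini-Hochberg adjustment over the 12971 genes kept and a threshold of 0.05. The SE is the log2 difference divided by the root of F. The code was tested on simulated data. Same-numbered libraries deviated together in every pair of groups (correlations of replicate differences 0.28 to 0.67). The numbers were therefore taken to pair libraries, after the calls were known, and the labels do not say what they share. The main fit stayed as planned, without this pairing, so members with 0 calls in it can be called with the replicate block. Alternatives were the DESeq2 1.42.0 Wald test, DESeq2 size factors, total counts, no filter, the replicate block, a 2-fold rule (mean CPM by total counts plus 0.1, at least 1 CPM) and leaving out each library; leaving out DMSO libraries for contrasts without DMSO was chosen after seeing the data. GENCODE M21 (GRCm38, another build) gave exon lengths for 49 of 49 members. Named members are the 6 largest called, non-overlapping differences per comparison, the most abundant per length in each role, the X-linked members, and the 2 largest called others per role for EPZ5676 against MM-401. Other members were named after their values were seen. Members and lists were chosen with earlier results of these data known.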

Additional observations from a re-analysis of the deposited data

How the results depend on the processing

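Of the 80 called member differences, 78 were still called by DESeq2, 77 with DESeq2 size factors, 71 with total counts, 77 with no filter and 80 with the replicate block. In the next count, and in the calls under every setting, the left-out libraries are only those of the groups compared. Over these and the left-out libraries, 558 of 720 were still called, 162 were not, and 0 had the opposite sign. The 2-fold rule gave 7 members for EPZ5676 and 8 for MI-2-2 against DMSO, and 5 and 7 against MM-401. These counts stand without the share of all genes that met the rule and are no result about the members as a list. DESeq2 gave 8 for iBET against MM-401. With the replicate block, 9 members were called for iBET against DMSO (5 rose, 4 fell). Against MM-401 the block gave 24 for EPZ5676 (9 rose, 15 fell) and 8 for iBET (5 rose, 3 fell). These splits stand without the shares of all genes that rose or fell. The block changed no other call than the 37 it added. Replicate 1 was the higher in all 5 groups for 10 members and replicate 2 for 6, against 13.3% and 15.9% of all genes. Leaving out single libraries gave 0 to 1 members for MM-401, 9 to 24 for EPZ5676, 10 to 24 for MI-2-2 and 0 to 13 for iBET against DMSO, and 5 to 24, 5 to 25 and 0 to 11 for EPZ5676, MI-2-2 and iBET against MM-401. The cause of these shifts was not tested. Called under every setting, the 2-fold rule aside, were 8 of 19 (EPZ5676) and 9 of 21 (MI-2-2) against DMSO, 4 of 15 and 4 of 19 against MM-401, and 0 for iBET. The counts of kept calls stand without the share of all called genes that were kept, and are no result about the members as a list. With 2 libraries a group and a median SE of 0.17, small differences could not be called, and low counts limit Tet1 (3 reads) and Hdac9 (7 reads).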
